A study of Mus musculus with 24 samples.

Results

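Interferon-stimulated genes are genes whose RNA rises when a cell senses an interferon, and they include antiviral effectors, sensors of foreign RNA and DNA, and the transcription factors that switch on the rest. A list of 37 such genes was followed among the 55385 genes counted in the hippocampus of 24 mice, and all 37 were found. This list and the other gene lists below were drawn up with earlier results of these data known. Shares of called genes therefore describe the lists and are not independent support. Of the 37 genes, 9 were selected on measured values of the same mice or for their place in the genome. *Gbp4* and 6 genes of the Ifi200 cluster (*Ifi202b*, *Mndal*, *Ifi203*, *Ifi204*, *Ifi207* and *Ifi211*) were picked for their changes here, and *Gbp8* and *Gbp9* share exon sequence with *Gbp4*. The values of these 9 genes are described with no test, most of them mouse by mouse, and the other 28 genes were tested.

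The study followed hippocampal RNA after deletion of *Tsc1*, an inhibitor of mTORC1, in a mouse model of epilepsy in tuberous sclerosis. All 24 mice were adults of 16 to 22 weeks of both sexes, carried floxed *Tsc1* (Tsc1f/f) and received tamoxifen. The 4 control mice lacked the Cre transgene (Tsc1f/f-Tg(Camk2a-CreERT2-), called Tsc1-Cre-) and were taken on day 8. The Tsc1-Cre+ mice carried the Camk2a-CreERT2 transgene, which removes *Tsc1* in CAMK2A-positive neurons and not by design in glia or vessels, and 4 mice each were taken on day 4, 6, 8 and 13. A further 4 Tsc1-Cre+ mice, called Tsc1-Cre+-Rap 4, received rapamycin, an inhibitor of mTORC1, at 10 mg/kg daily from day 4 and were taken on day 13. Untreated mice on day 13 are called day 13 mice, and no group received rapamycin without Cre.

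Type I interferons bind the *Ifnar1* and *Ifnar2* receptor, and the kinases *Jak1* and *Tyk2* then let a complex that contains *Stat2* and *Irf9* assemble, which binds the interferon-stimulated response element in promoters. Interferon gamma acts through the *Ifngr1* and *Ifngr2* receptor and the gamma-activated site in promoters. In brain, microglia, astrocytes and endothelial cells respond most readily to interferon, and neurons less so.

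Levels are given as CPM, counts relative to library size with the sizes scaled by TMM factors over all 24 libraries, and the letter A to D names a mouse within its group. Total counts per mouse ranged from 28208561 to 126435936, and 3 counts, the limit that a count of 0 allows, equal 0.0237 to 0.106 CPM. *Tsc1* stood at 103 to 109 CPM in controls and at 57.4 to 81.7 CPM in the 20 mice with Cre, with no overlap. Markers of hippocampal neurons summed to between 4644 and 6410 CPM in every mouse, and markers of the choroid plexus varied between 39.9 and 1705 CPM within and between groups. Numbers in the names of the deposited files fall into series, and the controls shared theirs with the day 8 mice while every other group came from others. If these series mark cohorts, time and cohort cannot be told apart for the other groups. Day 13 mice A and B shared a series, had *Xist* at 2.00 and 1.53 CPM against 810 and 816 CPM in mice C and D, and stood apart from C and D for several members, so the genes named on day 13 are also given with mice C and D only.

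Interferon-stimulated genes were at low to moderate levels in control hippocampus. Per kilobase of exon, the highest were *Ifi27*, which encodes a small membrane protein (mean 13.0 ± 2.34 CPM per kilobase, SD, n = 4), *Ifitm3*, which blocks the fusion of viruses with the cell (5.14 ± 0.666), and *Stat2* (4.61 ± 0.479). The last pair differed by less than the spread between mice. The lowest of the 28 tested genes were *Ifi44* (0.145 ± 0.0338) and *Isg20*, a ribonuclease (0.135 ± 0.0742), whose spreads also overlapped. Every one of the 28 genes had at least 4 counts in every mouse. Of the selected genes, *Ifi207* and *Gbp8* had 0 counts in 2 mice each and *Ifi211* in 1.

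**Figure D1:**
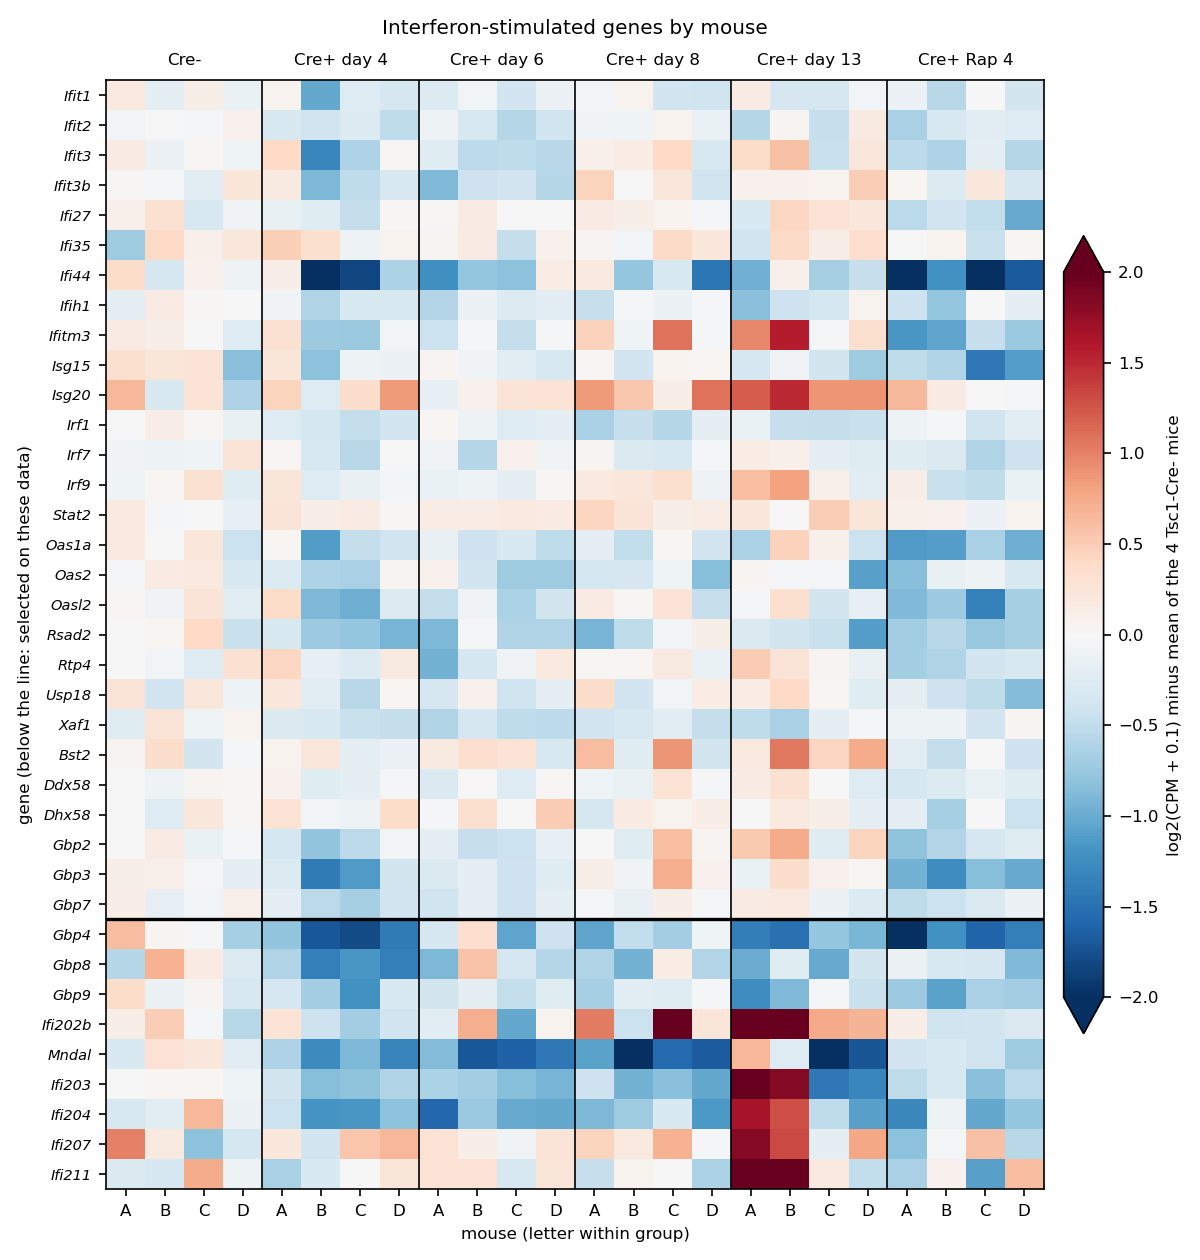
Each row is 1 of the 37 genes and each column 1 mouse, and colour gives log2(CPM + 0.1) minus the mean of the 4 Tsc1-Cre- mice, with values beyond -2 and 2 in the end colours and the 9 selected genes under the thick line. The rapamycin columns are mostly blue above the line, and day 13 mice A and B are red in 5 rows below it.

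Promoters of the members were read from RefSeq on build GRCm38.p6, as windows from 250 bases before to 50 bases after a gene's start. A window was given for 28 of the 37 genes. The interferon-stimulated response element, searched as GAAANNGAAA on both strands, stood in 18 of these 28 (64.3%) and in 1079 of the 27025 genes with a window (3.99%). The gamma-activated site, searched as TTCNNNGAA, stood in 9 of 28 (32.1%) and in 9.55% of all genes. Among the members outside the 9 selected genes, the shares were 14 of 23 (60.9%) and 8 of 23 (34.8%). A match is a description of the letters and not a proven site.

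The windows of some of the members named below are shown 5′ to 3′ on the strand of the gene, with response element matches in capitals. *Gbp3* (chr3:142559794-142560093, plus strand), *Oas1a* (chr5:120907476-120907775, minus strand) and *Ifitm3* (chr7:141010695-141010994, minus strand) were lower under rapamycin, and *Ifi203* (chr1:173942443-173942742, minus strand) and *Ifi202b* (chr1:173982795-173983094, minus strand) parted the day 13 mice.
Gbp3: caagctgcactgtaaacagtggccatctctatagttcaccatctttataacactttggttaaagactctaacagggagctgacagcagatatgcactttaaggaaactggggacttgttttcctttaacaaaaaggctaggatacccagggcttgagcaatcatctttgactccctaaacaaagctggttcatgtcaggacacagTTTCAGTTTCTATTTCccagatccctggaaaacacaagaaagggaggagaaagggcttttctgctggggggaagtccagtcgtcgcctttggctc
Oas1a: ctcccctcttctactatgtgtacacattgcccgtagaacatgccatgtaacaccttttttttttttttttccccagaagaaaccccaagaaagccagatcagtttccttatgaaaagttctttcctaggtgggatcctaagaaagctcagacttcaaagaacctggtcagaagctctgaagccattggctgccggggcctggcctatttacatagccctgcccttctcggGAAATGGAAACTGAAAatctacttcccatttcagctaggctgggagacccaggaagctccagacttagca
Ifitm3: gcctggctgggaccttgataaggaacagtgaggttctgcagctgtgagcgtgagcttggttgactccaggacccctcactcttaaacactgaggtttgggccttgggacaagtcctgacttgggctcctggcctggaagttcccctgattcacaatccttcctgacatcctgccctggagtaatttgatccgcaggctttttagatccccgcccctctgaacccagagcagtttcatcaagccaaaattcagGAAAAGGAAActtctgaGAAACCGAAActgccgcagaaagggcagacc
Ifi203: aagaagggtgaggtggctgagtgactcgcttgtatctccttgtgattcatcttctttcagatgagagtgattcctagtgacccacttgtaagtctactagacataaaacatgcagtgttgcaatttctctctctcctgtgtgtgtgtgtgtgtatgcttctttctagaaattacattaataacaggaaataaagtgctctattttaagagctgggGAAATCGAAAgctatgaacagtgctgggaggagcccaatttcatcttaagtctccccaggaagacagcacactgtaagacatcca
Ifi202b: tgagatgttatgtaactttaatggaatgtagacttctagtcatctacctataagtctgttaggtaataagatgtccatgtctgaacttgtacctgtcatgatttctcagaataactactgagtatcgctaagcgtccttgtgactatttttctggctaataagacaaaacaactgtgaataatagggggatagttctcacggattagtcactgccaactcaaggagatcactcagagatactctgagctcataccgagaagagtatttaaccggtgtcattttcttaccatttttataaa
The windows of *Gbp3*, *Oas1a* and *Ifitm3* each hold 2 matches, some of them overlapping, and that of *Ifi203* holds 1. *Gbp3* and *Ifi203* each have another window, with no match (chr3:142560106-142560405 on the plus strand and chr1:173942623-173942922 on the minus strand), and a gene was counted where any of its windows held a match. The window of *Ifi202b* holds none, and neither do those of *Ifi35*, *Ifi44*, *Ifit2*, *Irf1*, *Irf7*, *Irf9*, *Isg20*, *Oasl2* and *Xaf1*. Of these, *Ifi44* and *Oasl2* were also called lower under rapamycin than in controls, as was *Ifi27*, for which no window was given.

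The first comparison asked whether interferon-stimulated genes had changed by day 4. None of the 28 genes was called by edgeR's quasi-likelihood test, where a call needs a Benjamini-Hochberg adjusted p below 0.05 together with a log2 fold change of more than 0.5 in either direction. At an unadjusted p under 0.05, 8 of the 28 genes differed, all lower, and DESeq2 called 2, *Rsad2* and *Gbp3*. Over all genes tested, 0.34% were called higher and 0.34% lower. The median log2 fold change of the 28 was -0.29, against -0.0047 for all genes tested, and 23 of 28 lay below 0.

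*Ifit2*, whose protein binds foreign RNA, and *Irf1*, a transcription factor, had adjusted p-values under 0.05 with fold changes under the minimum. *Ifit2* stood at 7.56, 7.87, 7.69 and 8.37 CPM in controls A to D and at 6.25, 5.96, 6.50 and 5.52 CPM on day 4 (log2 fold change -0.38 ± 0.08 (SE), adjusted p = 0.0233). All 4 day 4 mice lay below all controls. *Irf1* stood at 8.44, 9.31, 8.67 and 7.65 CPM in controls and at 7.13, 6.65, 6.07 and 6.46 CPM on day 4 (log2 fold change -0.37 ± 0.09 (SE), adjusted p = 0.0319), again with no overlap.

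The 4 day 4 mice did not move together. Mouse A had the highest level for 21 of the 28 genes within its group, and mice B and C shared the lowest for 24. The median difference from the control mean was 0.08 in mouse A, -0.47 in B, -0.49 in C and -0.10 in D. *Gbp3*, a guanylate-binding GTPase, illustrates this with 3.90, 1.73, 2.09 and 3.65 CPM on day 4 and 5.14, 5.09, 4.59 and 4.12 CPM in controls (log2 fold change -0.74 ± 0.22 (SE), adjusted p = 0.0868). Mice A, B and C came from 1 file series and all had low *Xist*, and mouse D from another. Without mouse A, *Gbp7* was called lower and the median of the 28 genes was -0.42. Red blood cell genes were also lower on day 4, with 4 of 5 called and a sum of 35.5 to 45.1 CPM against 58.9 to 75.7 CPM in controls. Microglia markers summed to 318, 302, 286 and 351 CPM in mice A to D against 337 to 394 CPM in controls, and endothelial markers to 268, 249, 240 and 255 CPM against 261 to 303 CPM. Mice B and C were the lowest of the group in both sums, and the part of these cells was not tested.

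On day 6, 2 of the 28 genes were called, *Ifit3b* and *Xaf1*, both lower, against 0.678% of all genes tested called lower and 0.647% called higher. The median of the 28 was -0.26 (all genes -0.02), 23 of 28 lay below 0, and 11 were lower and 1 higher at an unadjusted p under 0.05.

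*Xaf1*, which encodes a factor that binds the apoptosis inhibitor XIAP, was the firmer of the pair when single mice were left out, but not with *Xist* as a covariate. It stood at 3.96, 5.67, 4.42 and 4.98 CPM in controls and 3.08, 3.72, 3.28 and 3.26 CPM on day 6, so all 4 day 6 mice lay below all controls (log2 fold change -0.52 ± 0.12 (SE), adjusted p = 0.0165). *Ifit3b* stood at 2.00, 1.90, 1.67 and 2.34 CPM in controls and 1.02, 1.45, 1.48 and 1.29 CPM on day 6, also with no overlap (log2 fold change -0.60 ± 0.16 (SE), adjusted p = 0.0321). *Ifit3b* shares 35.3% of its 76-base windows with its neighbour *Ifit3*, so reads of the pair could have been split. *Ifit3* itself had a log2 fold change of -0.49 ± 0.12 (SE, adjusted p = 0.0226) and *Ifit2* of -0.35 ± 0.10 (SE, adjusted p = 0.0380), below the fold minimum for a call.

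*Xaf1* lost its call without control B or D or day 6 mouse A, where its fold change fell under the minimum. Without day 6 mouse C it also lost its call (adjusted p = 0.0525). *Ifit3b* lost its call without control B or D or any 1 of the 4 day 6 mice (highest adjusted p = 0.0996). With *Xist* as a covariate *Ifit3b* was called and *Xaf1* was not. *Xist* stood at 3.12, 1055, 636 and 1070 CPM in controls A to D and at 902, 2.42, 2.87 and 2.12 CPM in day 6 mice A to D. No gene was called without day 6 mouse C, and 1 was called without day 6 B (*Xaf1*), control B, control D or day 6 A (in each case *Ifit3*). As on day 4, red blood cell genes were lower (4 of 5 called, sum 35.1 to 46.1 CPM). The summed microglia markers (301 to 318 CPM) and endothelial markers (241 to 259 CPM) also lay below those of all controls (337 to 394 and 261 to 303 CPM), and the part of these cells was not tested.

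By day 8 the 28 genes were centred on the control level. None was called by edgeR or DESeq2, 3 had an unadjusted p under 0.05, and the median log2 fold change was -0.00015 with 14 genes on each side of 0. Among all genes tested, 2.15% were called higher and 1.84% lower. *Irf1* had the smallest adjusted p of the 28, at 5.40, 6.12, 5.67 and 7.45 CPM against 8.44, 9.31, 8.67 and 7.65 CPM in controls (log2 fold change -0.48 ± 0.12 (SE), adjusted p = 0.0238). All 4 day 8 mice lay below all controls, and the fold change was just under the minimum for a call, so that *Irf1* was called without control D or day 8 mouse D. With the file series as a block, which controls and day 8 mice share, none of the 28 was called and their median was -0.00027. Day 8 mouse C held the highest level of its group for 16 of the 28 genes, among them *Ifitm3* at 7.50 CPM where the other 3 mice stood between 3.27 and 4.83 CPM.

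On day 13, 1 of the 28 genes was called, which is 3.57% of them, against 8.4% of all genes tested called higher and 8.06% called lower. The called gene was *Isg20*, named after its values were seen because its mean of 0.366 CPM is under the minimum of 0.5 CPM set for naming. It stood at 0.422, 0.167, 0.299 and 0.115 CPM in controls and 0.661, 0.827, 0.511 and 0.507 CPM on day 13, without overlap (log2 fold change 1.31 ± 0.38 (SE), adjusted p = 0.0317). Its counts were 6 to 23 in controls and 18 to 97 on day 13. *Isg20* lost its call without control B, C or D or day 13 mouse A or B (highest adjusted p = 0.0889), and with day 13 mice C and D only its log2 fold change was 1.01 (adjusted p = 0.199).

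*Ifitm3* and *Bst2*, whose protein tethers budding viruses to the cell, were higher in 3 of 4 day 13 mice than in any control but did not pass the test. *Ifitm3* stood at 6.86, 10.5, 3.41 and 4.36 CPM on day 13 and 3.89, 3.75, 3.43 and 2.87 CPM in controls (log2 fold change 0.83 ± 0.30 (SE), adjusted p = 0.0672). *Bst2* stood at 1.63, 3.02, 1.93 and 2.41 CPM on day 13 and 1.47, 1.82, 1.07 and 1.36 CPM in controls (log2 fold change 0.64 ± 0.23 (SE), adjusted p = 0.0679). Mouse B, the deepest library, was highest for both, and for 17 of the 28 genes within its group. DESeq2 called both together with *Isg20*. *Irf1* remained below the control mean with 7.72, 6.16, 6.05 and 6.24 CPM (log2 fold change -0.40 ± 0.12 (SE), adjusted p = 0.0373), and mouse A overlapped the controls. With mice C and D only, the log2 fold changes were 0.15 ± 0.18 (SE), adjusted p = 0.599 for *Ifitm3*, 0.60 ± 0.24 (SE), adjusted p = 0.105 for *Bst2* and -0.47 ± 0.12 (SE), adjusted p = 0.0221 for *Irf1*.

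The other 24 genes ranged between log2 fold changes of -0.60 and 0.41 on day 13, and none passed the test. The RNA sensors *Ifih1* (MDA5), *Ddx58* (RIG-I) and *Dhx58* (LGP2) lay between -0.38 and 0.05. The ubiquitin-like modifier *Isg15* and *Usp18*, the protease that removes it, stood at -0.49 ± 0.31 and 0.08 ± 0.22 (SE). With 1 mouse left out, 0 to 3 of the 28 genes were called: 0 without control B, C or D or day 13 B, and 3 without day 13 mouse C (*Ifitm3*, *Isg20* and *Gbp2*) or D (*Ifih1*, which was lower, *Ifitm3* and *Isg20*). Without day 13 A, *Bst2* was called in place of *Isg20*. Microglia markers summed to 355 to 530 CPM on day 13, overlapping the controls (337 to 394 CPM). Their median log2 fold change was 0.04, and 3 of 14 were called higher (*C1qa*, *C1qb* and *C1qc*), 2 with mice C and D only. Of 10 astrocyte markers, *Gfap* and *Vim* were called higher and *Gja1* lower, and 2 of 10 hippocampal neuron markers were called higher. Red blood cell genes summed to 31.8 to 49.3 CPM (5 of 5 lower, 2 with mice C and D only). The part of all these cells was not tested.

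Between day 8 and day 13 no gene was called by edgeR among 24747 tested, so 0% of all genes were called higher and 0% lower and none of the 28 was called. At an unadjusted p under 0.05 edgeR gave 3479 genes, none of them among the 28, and DESeq2 called 238 genes, again none of the 28. The largest difference was that of *Isg20* (log2 fold change 0.53 ± 0.31 (SE), adjusted p = 0.439).

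Rapamycin mice were then compared with controls. Of the 28 genes, 6 were called lower and none higher, that is 21.4% of the genes called lower, against 1.04% of all genes tested called lower and 0.372% called higher. The members were chosen with earlier results of these data known, so this contrast is a description only. The called genes were *Ifi44*, *Oas1a*, *Gbp3*, *Oasl2*, *Ifitm3* and *Ifi27*. The median of the 28 was -0.35 (all genes 0.01), 26 of 28 lay below 0, and 17 were lower and none higher at an unadjusted p under 0.05. The median over the 28 genes in each mouse was -0.46, -0.47, -0.39 and -0.36 against -0.11 to 0.03 in controls.

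**Figure D2:**
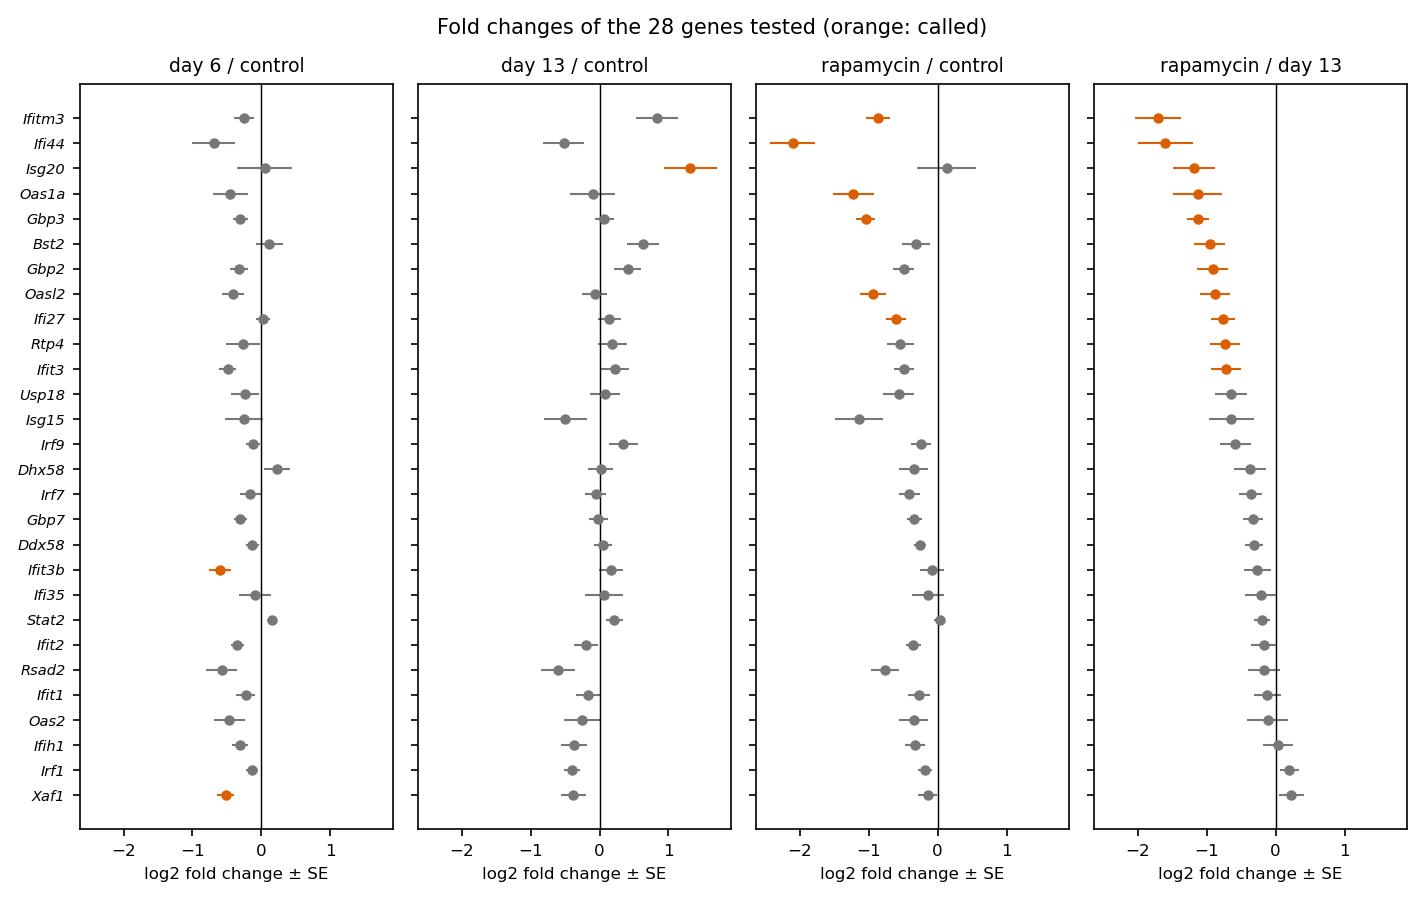
Points are edgeR log2 fold changes of the 28 tested genes with their standard errors in 4 comparisons (4 mice against 4), with called genes in orange and genes in the order of the last panel. No gene is called higher under rapamycin in either rapamycin panel, and *Ifitm3* lies at 0.83 on day 13 and -0.86 under rapamycin.

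*Gbp3* was the firmest of the 6. It stood at 5.14, 5.09, 4.59 and 4.12 CPM in controls A to D, at 2.39, 1.93, 2.58 and 2.29 CPM under rapamycin and at 4.29, 6.04, 5.00 and 4.84 CPM on day 13. The rapamycin mice lay below every control and every day 13 mouse, 2.06-fold lower than controls (log2 fold change -1.04 ± 0.13 (SE), adjusted p = 0.00136). *Gbp3* kept an adjusted p under 0.05 in all 16 alternatives, each single mouse left out included.

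*Ifi44* showed the largest fold change, at low counts. It stood at 1.156, 0.667, 0.928 and 0.805 CPM in controls (40 to 63 counts) and at 0.139, 0.322, 0.125 and 0.203 CPM under rapamycin (4 to 18 counts), 4.29-fold lower with no overlap (log2 fold change -2.10 ± 0.32 (SE), adjusted p = 0.00389). Its call held with each mouse left out. The day 4 mice B and C, at 0.106 and 0.177 CPM, were as low as the rapamycin mice.

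The oligoadenylate synthetase family, whose products activate the ribonuclease RNase L, was represented by *Oas1a*, *Oas2* and *Oasl2*. *Oasl2* stood at 2.46, 2.25, 2.86 and 2.01 CPM in controls and 1.25, 1.40, 0.874 and 1.46 CPM under rapamycin, with no overlap (log2 fold change -0.94 ± 0.19 (SE), adjusted p = 0.0158), and lost its call without control C (adjusted p = 0.0536). *Oas1a*, named after its values were seen because of its low level, stood at 0.679, 0.584, 0.692 and 0.402 CPM in controls and 0.208, 0.215, 0.333 and 0.244 CPM under rapamycin (log2 fold change -1.22 ± 0.30 (SE), adjusted p = 0.0408). *Oas1a* lost its call without control A, B or C or rapamycin mouse A, B or D (highest adjusted p = 0.117), and 47.3% of its 76-base windows also occur in *Oas1g*, so its reads are uncertain. *Oas2* did not pass the test (log2 fold change -0.35 ± 0.21 (SE), adjusted p = 0.430).

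*Ifitm3* and *Ifi27*, the genes with the most RNA per length, were also lower. *Ifitm3* stood at 3.89, 3.75, 3.43 and 2.87 CPM in controls and 1.49, 1.61, 2.50 and 2.03 CPM under rapamycin (log2 fold change -0.86 ± 0.17 (SE), adjusted p = 0.0172). *Ifi27* stood at 20.1, 23.2, 15.0 and 18.0 CPM in controls and 13.0, 14.4, 13.4 and 9.36 CPM under rapamycin (log2 fold change -0.60 ± 0.14 (SE), adjusted p = 0.0335). Neither gene had any overlap between the 8 mice. *Ifitm3* lost its call without rapamycin mouse B (adjusted p = 0.0561), and *Ifi27* without control A, B or D or rapamycin mouse A, C or D (highest adjusted p = 0.0954).

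**Figure D3:**
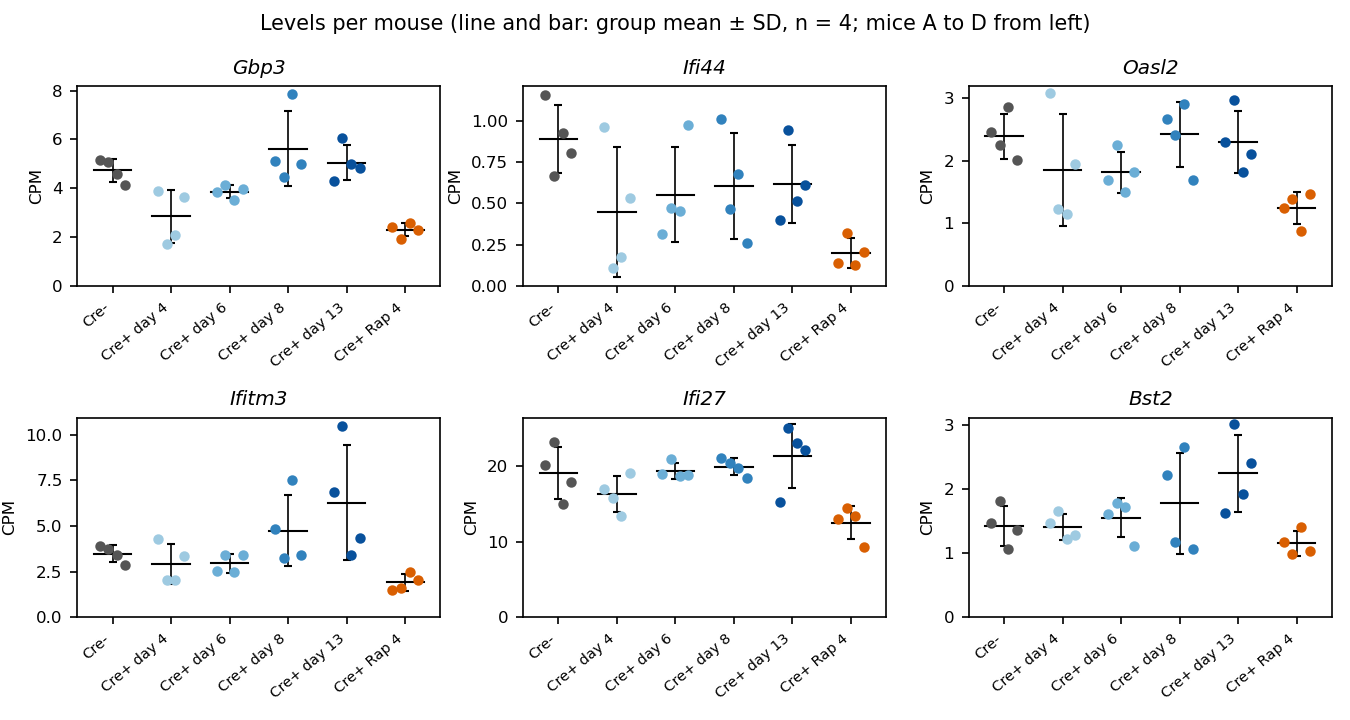
Each panel gives the CPM of 1 gene in the 24 mice, 6 groups of 4, with the group mean and SD as line and bar and an axis from 0. The 4 rapamycin mice lie below all 4 controls for *Gbp3*, *Ifi44*, *Oasl2*, *Ifitm3* and *Ifi27*, and overlap them for *Bst2*.

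The remaining 22 genes lay between -1.14 and 0.13 and did not pass the test. The lowest was *Isg15* (log2 fold change -1.14 ± 0.35 (SE), adjusted p = 0.0960), followed by *Rsad2*, which encodes the antiviral enzyme viperin (log2 fold change -0.76 ± 0.20 (SE), adjusted p = 0.0595). All 3 RNA sensors lay between -0.35 and -0.25, and the 4 transcription factors between -0.41 (*Irf7*) and 0.03 (*Stat2*). With 1 mouse left out, 4 to 7 of the 28 genes were called lower and none higher, and the count was 4 without control A, B or C or rapamycin mouse A, B or D. In a fit of all 24 mice, 2 genes were called (*Ifi27* and *Gbp3*), and DESeq2 called 5, of which 4 are among the 6.

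Markers of other cell types moved in the same comparison. Of 14 microglia markers 6 were called lower, and their sum was 245 to 277 CPM under rapamycin against 337 to 394 CPM in controls, with no overlap. For endothelial markers 2 of 10 were called lower (sum 221 to 232 against 261 to 303 CPM, no overlap), and for astrocyte markers 3 of 10 (5826 to 6003 against 5911 to 6470 CPM, overlapping). The 10 hippocampal neuron markers summed to 4932 to 5887 against 5232 to 6211 CPM, and 2 of 5 red blood cell genes were called lower. In bulk tissue, fewer cells of a type and less RNA per cell cannot be told apart, and the part of these cell types in the lower interferon-stimulated genes was not tested. Monocyte and neutrophil markers summed to at most 8.44 CPM and lymphocyte markers to at most 1.88 CPM in any mouse, and *Ly6g*, a neutrophil marker, had 5 counts over all 24 mice.

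**Figure D4:**
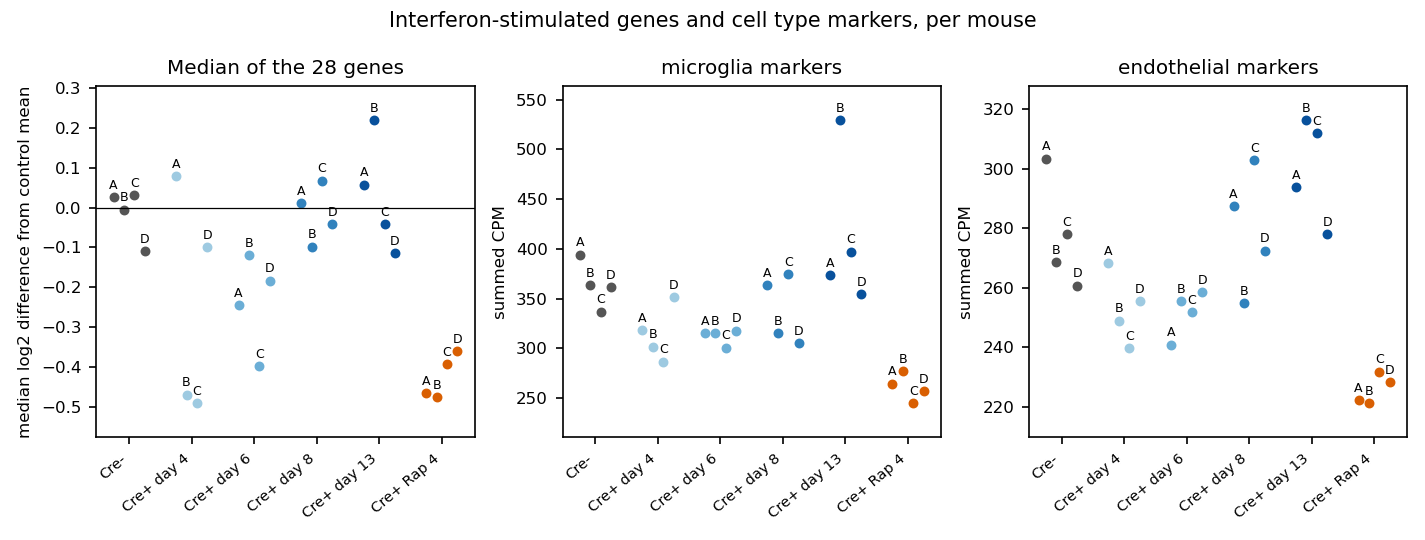
Each point is 1 mouse with its letter: at left the median over the 28 tested genes of log2(CPM + 0.1) minus the control mean, and at right the summed CPM of 14 microglia and 10 endothelial markers. The rapamycin mice lie below all controls in all 3 panels, and so do all day 6 mice and day 4 mice B and C.

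Compared with untreated mice of the same day, the rapamycin mice differed in more of the 28 genes. Here 11 genes were called lower and none higher (39.3% called lower), against 11.2% of all genes tested called lower and 9.94% called higher. This contrast too describes genes chosen with earlier results known. The median was -0.48 (all genes 0.02), 25 of 28 lay below 0, and 15 were lower and none higher at an unadjusted p under 0.05. DESeq2 called 13 lower and none higher. The rapamycin mice are shared with the comparison against controls, so that the values of both comparisons are not independent.

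*Ifitm3* differed most, and it lay above the control mean on day 13 and below it under rapamycin. Its log2 difference between rapamycin and day 13 was -1.71 ± 0.33 (SE, adjusted p = 0.00451). With day 13 mice C and D only it was -1.02 and still called. *Ifi44* followed (log2 fold change -1.601 ± 0.40 (SE), adjusted p = 0.0136), then *Isg20* (log2 fold change -1.19 ± 0.31 (SE), adjusted p = 0.0161) and *Oas1a* (log2 fold change -1.13 ± 0.36 (SE), adjusted p = 0.0366), both of which are named here after their values were seen, since their levels were under 0.5 CPM.

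*Gbp2* and *Gbp3* were both lower than on day 13. *Gbp3* had a log2 fold change of -1.12 ± 0.16 (SE, adjusted p = 0.00113), beside -1.04 ± 0.13 against controls. *Gbp2* stood at 3.81, 4.45, 2.22 and 3.63 CPM on day 13, 1.46, 1.72, 2.06 and 2.19 CPM under rapamycin and 2.64, 2.95, 2.39 and 2.55 CPM in controls (log2 fold change -0.91 ± 0.22 (SE), adjusted p = 0.0129). All 4 rapamycin mice lay below all day 13 mice and all controls, although the difference from controls did not pass the test (adjusted p = 0.105). *Gbp7*, the remaining tested member of the family, did not pass in either comparison (-0.33 ± 0.15, SE, against day 13).

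*Bst2* stood at 1.18, 0.985, 1.42 and 1.04 CPM under rapamycin, below all 4 day 13 mice (log2 fold change -0.96 ± 0.23 (SE), adjusted p = 0.0115). *Oasl2* (-0.88 ± 0.22, SE) and *Ifi27* (-0.76 ± 0.17, SE) were also lower, beside -0.94 ± 0.19 and -0.60 ± 0.14 (SE) against controls. *Rtp4*, a receptor transport protein, and *Ifit3* completed the 11, at -0.74 ± 0.22 and -0.72 ± 0.22 (SE), and 5 of the 11, namely *Isg20*, *Oas1a*, *Ifi27*, *Rtp4* and *Ifit3*, were named after their values were seen.

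With day 13 mice C and D only, 4 of the 11 genes were called, *Ifi27*, *Ifitm3*, *Bst2* and *Gbp3*, and the median of the 28 was -0.36. Over all genes, that fit called 3328 in both directions together, beside 5123 of 24274 tested with all day 13 mice. Single mice decided further calls. *Isg20* lost its call without day 13 mouse B or rapamycin mouse C or D (highest adjusted p = 0.0539), *Oas1a* without day 13 B or C or any rapamycin mouse (0.131), *Rtp4* without day 13 A or B or any rapamycin mouse (0.0804) and *Ifit3* without day 13 A or B or rapamycin A, B or D (0.0869). The other 7 kept their calls whichever mouse was omitted. The count fell to 7 without day 13 mouse B or rapamycin mouse D and rose to 13 without day 13 mouse D. Microglia markers (7 of 14 lower), endothelial markers (6 of 10 lower) and astrocyte markers (5 of 10 lower and 1 higher) moved in this comparison too. So did hippocampal neuron markers (3 of 10 lower), against 11.2% of all genes tested called lower. With mice C and D only, 7, 2, 4 and 2 of these lists were lower in the same order, and their part was not tested.

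The 9 selected genes are described without a test, since differences in these data were the reason for picking *Gbp4* and the Ifi200 genes. *Gbp8* and *Gbp9* were set aside with them for the exon sequence shared with *Gbp4*. The Ifi200 cluster on chromosome 1 encodes PYHIN proteins, many of which bind DNA through a HIN domain, and *Ifi202b* is known to antagonize the DNA sensor *Aim2*. *Ifi202b* stood at 0.275, 0.384, 0.236 and 0.134 CPM in controls, 0.316, 0.159, 0.112 and 0.166 CPM on day 4 and 0.196, 0.471, 0.0695 and 0.262 CPM on day 6. It reached 0.604, 0.156, 3.73 and 0.311 CPM on day 8 and 69.6, 25.6, 0.483 and 0.457 CPM on day 13, and stood at 0.278, 0.161, 0.167 and 0.183 CPM under rapamycin. Mice A and B on day 13, with 4528 and 3003 counts, and mouse C on day 8, with 199, stood above the rest, and all others had 34 counts or fewer. None of its 76-base windows occurs in another gene.

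*Ifi203* showed the same split on day 13 on top of a lower level elsewhere. It stood at 5.47, 5.69, 5.69 and 5.21 CPM in controls and at 32.9, 19.9, 1.99 and 2.18 CPM on day 13, so that mice A and B lay above and mice C and D below all controls. On day 4 it stood at 4.23, 3.00, 3.10 and 3.58 CPM, on day 6 at 3.51, 3.36, 3.02 and 2.85 CPM and on day 8 at 4.12, 2.80, 3.04 and 2.67 CPM. These 12 mice and the 4 rapamycin mice (3.85, 4.44, 3.04 and 3.76 CPM) all lay below the lowest control.

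*Mndal*, the neighbour whose exons overlap those of *Ifi203* by 37 bp, followed a like course. It stood at 2.73, 4.17, 3.95 and 2.93 CPM in controls, 2.18, 1.34, 1.77 and 1.28 CPM on day 4, 1.80, 0.974, 1.04 and 1.20 CPM on day 6 and 1.56, 0.553, 1.09 and 1.01 CPM on day 8. On day 13 it stood at 5.43, 2.81, 0.568 and 0.964 CPM and under rapamycin at 2.57, 2.74, 2.56 and 2.03 CPM. All mice of days 4, 6 and 8 lay below all controls, and 3 of 4 rapamycin mice did too, but closer to them.

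*Ifi204*, *Ifi207* and *Ifi211* were near or under 1 CPM in most mice. *Ifi204* stood at 0.367, 0.400, 0.834 and 0.441 CPM in controls, 0.333, 0.159, 0.160 and 0.232 CPM on day 4, 0.0981, 0.251, 0.191 and 0.187 CPM on day 6 and 0.213, 0.259, 0.375 and 0.165 CPM on day 8. It stood at 1.74, 1.33, 0.312 and 0.178 CPM on day 13 and 0.139, 0.448, 0.187 and 0.244 CPM under rapamycin. *Ifi207* stood at 0.523, 0.341, 0.0568 and 0.203 CPM and *Ifi211* at 1.35, 0.793, 0.142 and 0.0507 CPM on day 13, and neither exceeded 0.257 CPM in any mouse of the other groups. Mice A and B were thus the highest of the 24 for *Ifi202b*, *Ifi203*, *Ifi204*, *Ifi207* and *Ifi211*. *Ifi211* shares 63.3% of its 76-base windows with other genes of the cluster, *Ifi204* 20.6% and *Mndal* 13.5%, so reads could have been split among them. The 6 other genes of the cluster that were looked up summed to at most 0.784 CPM in any mouse.

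**Figure D5:**
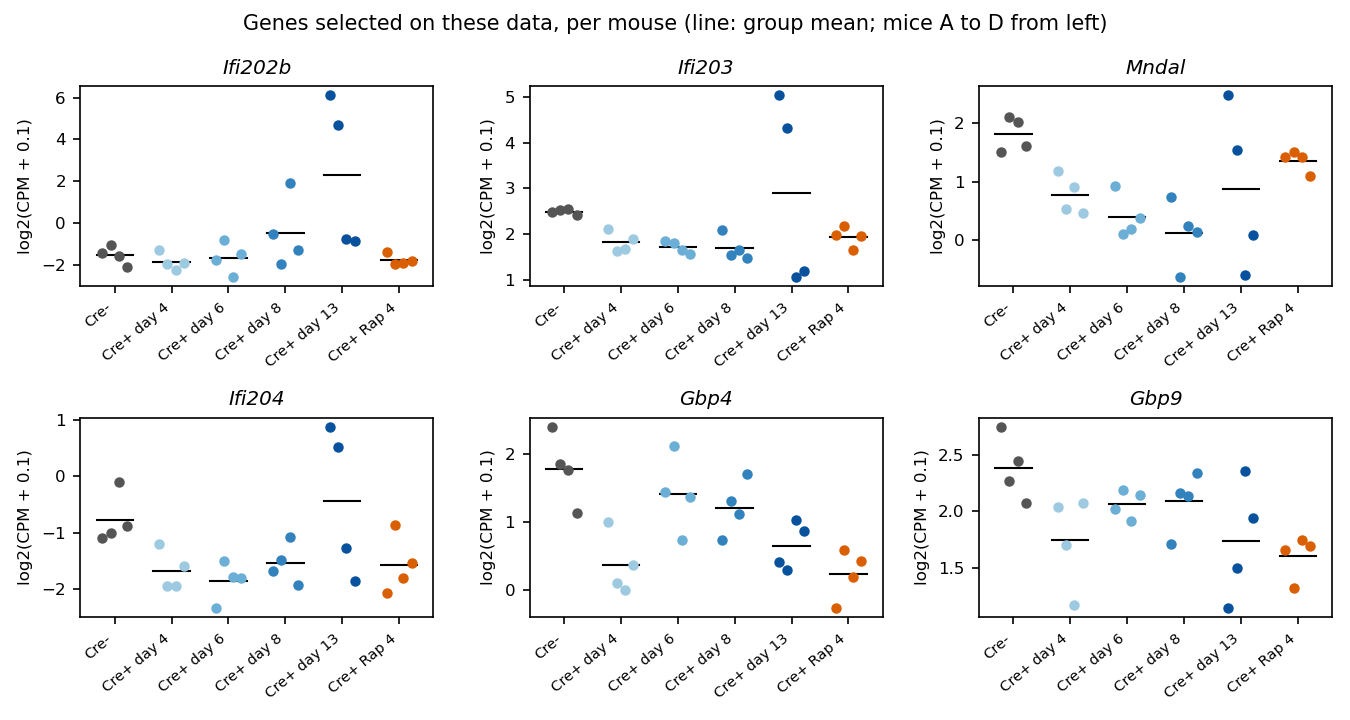
Each panel gives log2(CPM + 0.1) of 1 selected gene in the 24 mice, with mice A to D from left to right in each group and the group mean as a line. On day 13, mice A and B lie far above mice C and D for *Ifi202b*, *Ifi203* and *Ifi204*, and *Gbp4* lies lower on day 4, on day 13 and under rapamycin than in controls.

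*Gbp4*, *Gbp8* and *Gbp9* lie together on chromosome 5 and share exon sequence of 60 to 61 bp on the same strand, so the counts of each are uncertain. *Gbp4* stood at 5.21, 3.50, 3.30 and 2.09 CPM in controls, 1.90, 0.970, 0.899 and 1.19 CPM on day 4, 2.63, 4.26, 1.56 and 2.49 CPM on day 6 and 1.56, 2.37, 2.06 and 3.17 CPM on day 8. It stood at 1.23, 1.13, 1.93 and 1.72 CPM on day 13 and 0.729, 1.40, 1.04 and 1.24 CPM under rapamycin. The mice of day 4, of day 13 and of the rapamycin group lay below all controls, and those of day 6 and day 8 overlapped them.

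*Gbp9* stood at 6.64, 4.72, 5.35 and 4.10 CPM in controls, 4.02, 3.16, 2.15 and 4.11 CPM on day 4, 3.96, 4.48, 3.67 and 4.33 CPM on day 6 and 3.18, 4.39, 4.30 and 4.96 CPM on day 8. It stood at 2.11, 2.73, 5.03 and 3.75 CPM on day 13 and at 3.05, 2.40, 3.25 and 3.13 CPM under rapamycin, where alone all 4 mice lay below all controls. *Gbp8* had 0 to 19 counts per mouse and at most 0.317 CPM, too few for any difference to be read.

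Of the genes that start the interferon response, the ligands were close to absent from these libraries. Among 21 interferon genes, *Ifng*, *Ifnl2*, *Ifnl3*, *Ifna14* and *Ifna15* had 0 counts in all 24 mice, *Ifnb1* had 4 counts in total, and the sum of the 21 genes was at most 0.619 CPM in any mouse. *Ifnk* alone passed the filter on low counts, and it was called lower on day 13 (-1.39, adjusted p = 0.0461) from levels between 0.202 and 0.613 CPM in controls. With mice C and D only it was not called (-0.88 ± 0.57 (SE), adjusted p = 0.316).

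Receptor and signalling genes were called higher on day 13 at about the share of all genes tested (7.69% against 8.4%). None was called lower, against 8.06% of all genes tested. On day 13, 1 of 13 was called, *Socs3*, which damps cytokine signalling and stood at 0.826, 0.901, 0.991 and 1.09 CPM in controls and at 98.8, 35.4, 7.47 and 0.989 CPM on day 13 (log2 fold change 5.20, adjusted p = 0.0100). Mice A and B were again the highest, and mouse C on day 8, which held the highest *Ifi202b* of its group, reached 5.74 CPM. With day 13 mice C and D only the log2 fold change of *Socs3* was 2.13 ± 0.55 (SE), adjusted p = 0.0220, still called. Of these mice only C was raised, and mouse D lay within the range of controls. *Socs3* was also higher under rapamycin than in controls (0.92, adjusted p = 0.0409). Against day 13, *Ifnar2*, *Ifngr2* and *Socs3* were called lower under rapamycin (23.1%, against 11.2% of all genes tested), and with mice C and D only *Ifngr2* alone was.

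A list of genes for the sensing of nucleic acids upstream of interferon also held adaptors and transcription factors, and several of its genes were called lower under rapamycin. *Tmem173*, which encodes STING, was called lower on day 4 (-0.77, adjusted p = 0.00745) and under rapamycin (-0.96, adjusted p = 0.00418). It stood at 3.21, 3.04, 2.60 and 2.45 CPM in controls, 1.72, 1.66, 1.605 and 1.66 CPM on day 4 and 1.32, 1.43, 1.39 and 1.64 CPM under rapamycin. Under rapamycin 3 of 16 (18.8%) were called lower, against 1.04% of all genes tested, the others being *Irf5* and *Irf8*, which are transcription factors and not sensors. On day 13 *Tlr7* was called higher and *Tlr3* lower, and with mice C and D only *Tlr7* was called (0.66 ± 0.18 (SE), adjusted p = 0.0304) and *Tlr3* was not (-0.37 ± 0.12 (SE), adjusted p = 0.0486, under the fold minimum). *Tmem173*, *Irf5* and *Irf8* were named after their values were seen.

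Another 37 interferon-stimulated genes outside the 37 members were looked up. On day 13, 3 of 33 tested were called higher, *Ifi30* (1.63), *Tor3a* (1.11) and *Sp110* (0.63), and none lower. This share of 9.09% was near that of all genes tested (8.4%), and with mice C and D only *Tor3a* was called (0.97 ± 0.08 (SE), adjusted p = 4.83e-05) while *Ifi30* (0.52 ± 0.25 (SE), adjusted p = 0.170) and *Sp110* (0.52 ± 0.28 (SE), adjusted p = 0.213) were not. Under rapamycin 2 of 32 (6.25%, all genes 1.04%) were called lower against controls (*Lgals3bp* and *Sp100*, named after their values were seen) and 11 of 32 against day 13 (34.4%, all genes 11.2%), with medians of -0.23 and -0.50. With mice C and D only, 5 of 32 were called lower against day 13, in a fit that called 3328 genes over both directions. On day 13 *Pml* was called lower with these mice (-0.52 ± 0.14 (SE), adjusted p = 0.0280). The medians were -0.14 on day 4 and -0.17 on day 6, and *Tor3a* alone was called higher on day 8.

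Genes that respond mainly to interferon gamma, here GTPases, proteasome subunits and *Ciita*, moved in both directions. On day 13, *Irgm1* was called higher (0.98, adjusted p = 0.0159) while *Tgtp2* (-1.50), *Iigp1* (-0.82) and *Irgm2* (-0.56) were called lower, out of 15 tested (all genes 8.4% called higher and 8.06% lower). With mice C and D only, *Iigp1* was called (-0.78 ± 0.24 (SE), adjusted p = 0.0455), and *Irgm1* (0.46 ± 0.13 (SE), adjusted p = 0.0337, under the fold minimum), *Tgtp2* (-0.82 ± 0.49 (SE), adjusted p = 0.282) and *Irgm2* (-0.40 ± 0.20 (SE), adjusted p = 0.186) were not. *Iigp1* and *Gbp11* were called lower on day 4, *Gbp2b* on day 6 and *Iigp1* on day 8, *Gbp11* and *Gbp2b* being named after their values were seen. Under rapamycin 4 of 15 (26.7%, all genes 1.04%) were called lower against controls and none higher, with a median of -0.59. Against day 13, 4 of 13 (30.8%, all genes 11.2%) were called lower under rapamycin and *Iigp1* was called higher (0.70, adjusted p = 0.0227). With mice C and D only, 2 were called lower and *Iigp1* was not called, in a fit that called 3328 genes over both directions. The summed level of this list was 27.1 to 29.2 CPM under rapamycin, 32.8 to 45.5 CPM on day 13 and 33.4 to 41.2 CPM in controls. *Ciita* had the highest mean of the list, at 10.1 CPM over all mice.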

How the data were processed

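Hippocampal total RNA of 24 mice was depleted of rRNA and sequenced in pairs of 76 bases. The authors trimmed reads with CutAdapt 1.16.5, aligned them with STAR 2.7.2b to mm10 (GRCm38) and counted them with featureCounts 1.6.4 on GENCODE M24, and deposited raw counts per gene, 1 library per mouse. Which counting settings were used for strand and for reads with several alignments is not given in the sources used here, so reads of similar or overlapping genes are uncertain. Names and exons used here came from GENCODE M21, in which 55144 of 55385 identifiers were found.

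Groups came from the sample titles. Each comparison used its 8 mice alone: edgeR 4.0.16 (R 4.3.3), filterByExpr, TMM, the quasi-likelihood test and Benjamini-Hochberg adjustment over all genes tested, and calls required an adjusted p below 0.05 and a log2 fold change beyond 0.5 in either direction. Adjusted p-values in the text are from this test. The script was tested on simulated data. Comparisons against controls share the 4 control mice. Controls were littermates without Cre, and which mice shared a litter is not given in the sources used here. The test sets each group difference against the spread between mice within groups, which may not cover differences between litters or file series. Intervals of 3 counts cover counting error only.

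The members and the gene lists were chosen with earlier results of these data known. By rule, per-mouse values were given for the 9 selected genes and for up to 6 called genes per comparison, those with the largest change and a mean of at least 0.5 CPM. Of the selected genes, *Gbp8* is given as a range and *Ifi207* and *Ifi211* per mouse on day 13 only. Genes not called were also given per mouse after their values were seen. These were *Ifit2*, *Irf1* and *Gbp3* on day 4, *Irf1* on day 8, and *Ifitm3*, *Bst2* and *Irf1* on day 13. From other lists up to 4 genes called on day 13 were named, and 1 gene of the signalling list is not reported here. Alternatives were DESeq2 1.42.0, all 24 mice, other size factors, filters and fold minimums, the letter as a block, *Xist* as a covariate and each mouse left out. A correction for GC content and the comparisons with day 13 mice C and D only were added after seeing the data.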

Additional observations from a re-analysis of the deposited data

Results flagged for a closer look

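Of 222 sets of 4 mice (37 genes in 6 groups), 13 held a mouse whose gap to the nearest other mouse was too large a share of its group's range by Dixon's test at the 5% level, and chance alone gives about 5% of such sets. In controls these were *Isg15* in mouse D (0.364 CPM), *Irf7* in mouse D (3.10 CPM), *Ifi204* in mouse C (0.834 CPM) and *Ifi211* in mouse C (0.252 CPM). On day 6 they were *Ifit3* in mouse A (2.73 CPM, the others 2.17 to 2.24), *Ifi27* in mouse B (21.03 CPM) and *Ifi211* in mouse C (0.0695 CPM). On day 8 they were *Isg15* in mouse B (0.536 CPM) and *Ifi202b* in mouse C (3.73 CPM, the others 0.156 to 0.604). On day 13 they were *Ifit3b* in mouse D (2.79 CPM), *Irf1* in mouse A (7.72 CPM) and *Oas2* in mouse D (0.482 CPM), and under rapamycin *Stat2* in mouse C (25.1 CPM). No mouse was taken out for these values.

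Tsc1-Cre+ mice with and without rapamycin differed on day 13 in 11 of the 28 tested genes, by the direct edgeR comparison. With no rapamycin group that lacks Cre, an action of rapamycin on its own and one on the effect of the deletion cannot be told apart. The log2 fold changes, rapamycin over day 13, were -1.71 for *Ifitm3*, -1.601 for *Ifi44*, -1.19 for *Isg20*, -1.13 for *Oas1a*, -1.12 for *Gbp3* and -0.96 for *Bst2*. They were -0.91 for *Gbp2*, -0.88 for *Oasl2*, -0.76 for *Ifi27*, -0.74 for *Rtp4* and -0.72 for *Ifit3*. With day 13 mice C and D only, 4 of the 11 were called (*Ifi27*, *Ifitm3*, *Bst2* and *Gbp3*), in a fit that called 3328 genes over both directions.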

How the results depend on the processing

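No called member changed direction in its comparison under any alternative. In 260 of 330 cases its adjusted p stayed under 0.05, whether or not the fold minimum was met. Other genes named above were not part of this count. Counts of called members (of 28) moved as follows, and the cause was not tested. With DESeq2 they were 2 on day 4 and 3 on day 13, and under rapamycin *Ifi44* and *Oas1a* got no adjusted p. Without a filter on low counts 1 was called on day 4. With no fold minimum the counts were 2 (day 4), 4 (day 6), 1 (day 8) and 2 (day 13), and with a log2 minimum of 1 they were 0 on day 6, 3 under rapamycin and 5 against day 13. A fit of all 24 mice called 0 on day 6, 3 on day 13 and 2 under rapamycin. With the *Xist* covariate 1 was called on day 6 (*Ifit3b*, without *Xaf1*) and 5 under rapamycin (without *Ifi27*), and with the GC correction 1 on day 8. Against day 13 the count was 13 with DESeq2 and in the fit of 24 mice, 10 with the GC correction and 9 without a filter on low counts. With day 13 mice C and D only, 0 were called on day 13 and 4 under rapamycin against day 13. Each mouse left out in turn gave 4 to 7 under rapamycin, 7 to 13 against day 13, 0 to 3 for day 13, 0 to 1 for day 8, 0 to 2 for day 6 and 0 to 1 for day 4. The mice that decide these counts are named above, as are mouse A on day 4 (1 without it) and control D and mouse D on day 8 (1 without either). For day 13 against day 8, all alternatives gave 0 members. Over all genes, the fit of 24 mice called 29 in place of 172 (day 4), 84 in place of 332 (day 6), 162 in place of 352 (rapamycin) and 1343 in place of 0 (day 13 against day 8, 238 by DESeq2), and mice C and D only gave 2504 in place of 4101 (day 13) and 3328 in place of 5123 (rapamycin against day 13).

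Letters A to D did not pair the mice: deviations of same-letter mice correlated at -0.28 to 0.15 (median 0.0044, 60 pairs). With the letter as a replicate block, 1 was called on day 6, 5 under rapamycin and 8 against day 13, and other counts did not change. Members under 1 CPM, such as *Isg20*, *Oas1a* and *Gbp8*, rest on few counts, and small differences in them were not detectable at this depth.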
